A study of Mus musculus with 9 samples.

Results

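The IFIT, ISG15 and antiviral effector set holds 10 genes: Ifit1, Ifit2, Ifit3, Isg15, Isg20, Usp18, Rsad2, Mx1, Mx2 and Bst2. All probes whose accession belongs to one of these genes were taken, and 8 of the 10 genes had a named probe (12 probes), of 16535 named genes on the array. Mx1 and Mx2 were not analysed here, because no probe carried an accession that the RefSeq table pairs with them. All 12 probes passed the filter on dim probes, which asked for a signal well above background on 3 or more of the 9 arrays, and 10 of them reached that signal on all 9.

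The cells were FDCPmix, a mouse multipotent hematopoietic progenitor line kept in self-renewal conditions. They were infected with a lentivirus that carried a short hairpin RNA against Gata2 (Gata2 KD), a short hairpin RNA against Pu.1 (Pu.1 KD), or no hairpin (empty vector, EV). Viable cells with the GFP of the vector were sorted on day 5, and their total RNA was measured on single-color Agilent arrays, 3 for each group. The control virus held no hairpin, so in a comparison with EV the effect of carrying any hairpin and that of lowering the target cannot be told apart. The comparison between Gata2 KD and Pu.1 KD sets hairpin against hairpin, but neither group is an untreated reference. An effect particular to the sequence of either hairpin cannot be told apart there from that of lowering its target. For Gata2 the paper speaks of a gene-specific hairpin in the singular. The number of hairpin sequences against Pu.1 was not given in the sources used here. Gata2 itself was lower in Gata2 KD by both of its probes (log2 difference -1.61 with adjusted p = 0.00414, and -1.80 with adjusted p = 0.000616, limma). Spi1, which encodes PU.1, was lower in Pu.1 KD (-1.73, adjusted p = 0.00178) and higher in Gata2 KD (1.39, adjusted p = 0.0012). A signal well above background was common, at 80.4% to 89.6% of the spots of an array. All 11 neutrophil granule and all 7 plasmacytoid dendritic cell markers looked up had it on all 9 arrays. It thus does not mark a cell type here. All 8 multipotent progenitor markers looked up (Kit, Cd34, Gata2, Ptprc, Csf2rb, Csf2rb2, Il3ra and Cd33) had a signal well above background on each of the 9 arrays. Among them, Cd34 (2.17, adjusted p = 0.000147), Cd33 (1.41, adjusted p = 0.00623) and Kit (0.75, adjusted p = 0.0241) were higher and Gata2 and Csf2rb2 (-0.93, adjusted p = 0.038) lower in Gata2 KD than in EV, while in Pu.1 KD Kit was higher (1.41, adjusted p = 0.00332) and Cd34 lower (-0.92, adjusted p = 0.0263).

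The members are effectors of the interferon response. Type I interferons bind a surface receptor whose kinases JAK1 and TYK2 activate transcription factors such as STAT2, and these enter the nucleus with IRF9 and bind interferon-stimulated response elements (ISREs) before the genes they induce. IFIT1, IFIT2 and IFIT3 bind foreign RNA or hinder its translation, ISG15 is a ubiquitin-like protein that is attached to other proteins, and USP18 removes ISG15 and damps the type I interferon receptor. RSAD2 (viperin) makes a nucleotide that ends viral RNA chains, ISG20 is an RNA exonuclease, BST2 (tetherin) holds budding virions at the cell surface, and MX1 and MX2 are dynamin-like GTPases. BST2 is also used as a surface marker of mouse plasmacytoid dendritic cells.

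A promoter sequence was at hand for 7 of the 10 members, with 10 annotated starts in all. The 250 bases before each start were searched on both strands for an ISRE-like repeat, GAAANNGAAA. At least 1 match lay before Ifit1, Ifit3, Isg15, Rsad2 and Bst2, and none lay before the starts of Ifit2 and Isg20. Of 32851 mouse promoters of the same length, 2.98% held a match. The members were listed as interferon response genes, so their matches are no independent finding beside that share. The 160 bases before the start of the 5 genes with a match are printed below on the strand of the gene (RefSeq, GRCm38.p6). They were picked because 4 of these genes are the members whose level rose in Gata2 KD. Whether a match bears on the change of a gene was not tested. Capitals mark the matches, which read TTTCNNTTTC where they lie on the other strand.
Ifit1: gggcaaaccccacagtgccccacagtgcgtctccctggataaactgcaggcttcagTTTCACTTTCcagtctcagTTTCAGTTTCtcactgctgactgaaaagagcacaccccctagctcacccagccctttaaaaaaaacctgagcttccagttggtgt
Ifit3: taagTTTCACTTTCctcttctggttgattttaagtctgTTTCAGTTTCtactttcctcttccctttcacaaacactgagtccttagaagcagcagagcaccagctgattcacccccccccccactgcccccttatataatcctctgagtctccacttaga
Isg15: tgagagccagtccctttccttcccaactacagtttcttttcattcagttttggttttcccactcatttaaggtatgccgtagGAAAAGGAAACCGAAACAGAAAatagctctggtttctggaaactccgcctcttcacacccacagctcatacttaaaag
Rsad2: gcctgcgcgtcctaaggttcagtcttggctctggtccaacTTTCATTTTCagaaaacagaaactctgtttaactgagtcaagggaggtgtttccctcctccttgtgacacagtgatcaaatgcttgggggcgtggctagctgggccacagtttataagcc
Bst2: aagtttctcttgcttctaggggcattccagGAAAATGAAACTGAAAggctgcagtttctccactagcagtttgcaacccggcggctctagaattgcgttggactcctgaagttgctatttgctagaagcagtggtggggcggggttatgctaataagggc

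The Ifit1 window lies at chr19:34640729-34640888 and that of Ifit3 at chr19:34583369-34583528, both on the plus strand of the chromosome that also holds Ifit2. The windows of Isg15 (chr4:156200819-156200978), Rsad2 (chr12:26456453-26456612) and Bst2 (chr8:71537473-71537632) are on the minus strand. Isg15 held 3 overlapping matches, Bst2 held 2 overlapping matches, Ifit1 and Ifit3 held 2 separate matches each, and Rsad2 held 1. GATA hexamers, which are AGATAA or AGATAG and the pair with T in the place of their first base, were found on either strand before 1 of the 3 starts of Isg20 and before no other member start, against 26.5% of all promoters. The core GAGGAA, which ETS factors such as PU.1 can bind, was found before Ifit3 (3 matches), 1 of the 2 starts of Ifit2 (1 match) and 1 of the 3 starts of Isg20 (1 match), against 23.3% of all promoters. A match is a run of letters and not a measured binding site.

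**Figure D1:**
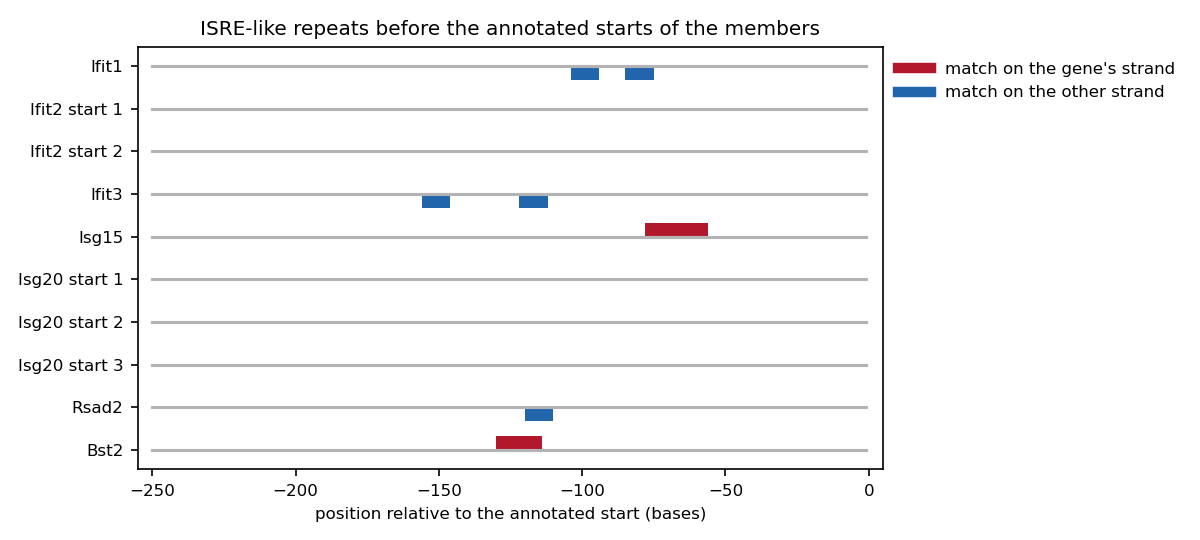
The map shows where the ISRE-like repeats lie in the 250 bases before each annotated start of 7 members, as distance from the start in bases; bars above a line are matches on the strand of the gene and bars below it matches on the other strand. Ifit1, Ifit3, Isg15, Rsad2 and Bst2 hold matches, and the 2 starts of Ifit2 and the 3 starts of Isg20 hold none.

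Levels are given as the log2 processed signal of a probe minus the 75th percentile of its array, so a level of 0 is that percentile. A level can be compared between groups within a probe, but between probes it does not rank the amount of RNA. Levels of different probes were set side by side to pick 1 probe per gene and to sum lists of markers. In Gata2 KD, 4 of the 8 measured members were higher than in EV (Ifit1, Ifit3, Isg15 and Rsad2) and 0 were lower by limma (2 of 8 were lower at an unadjusted p under 0.05), by the probe with the highest mean level for each gene. Over the whole array 2.96% of tested probes were higher and 2.24% lower at an adjusted p under 0.05. In Pu.1 KD, Isg20 was higher and Usp18 was lower than in EV, where 1.27% of all tested probes were higher and 1.42% lower. Groups that do not overlap were more common. All Gata2 KD arrays lay above all EV arrays for 7.65% of tested probes and below them for 10.9%. For Pu.1 KD against EV these shares were 7.91% and 9.29%. The median log2 difference of the 8 genes from EV was 0.96 in Gata2 KD and 0.19 in Pu.1 KD, beside -0.09 and -0.04 over all tested probes. With the probe of highest mean in EV for each gene, a choice made after seeing the data, 3 of 8 were higher in Gata2 KD (Ifit1, Ifit3 and Isg15), and the medians were 0.23 and -0.0045. The members were chosen with earlier results of these data known, so their counts beside the shares of all tested probes are a description. Both comparisons share the EV arrays. These were bulk samples, in which fewer cells that express a gene and less RNA of it per cell cannot be told apart. The labels call the arrays of a group triplicate samples and do not say whether they came from separate cultures, so the p-values measure the spread between these samples.

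**Figure D2:**
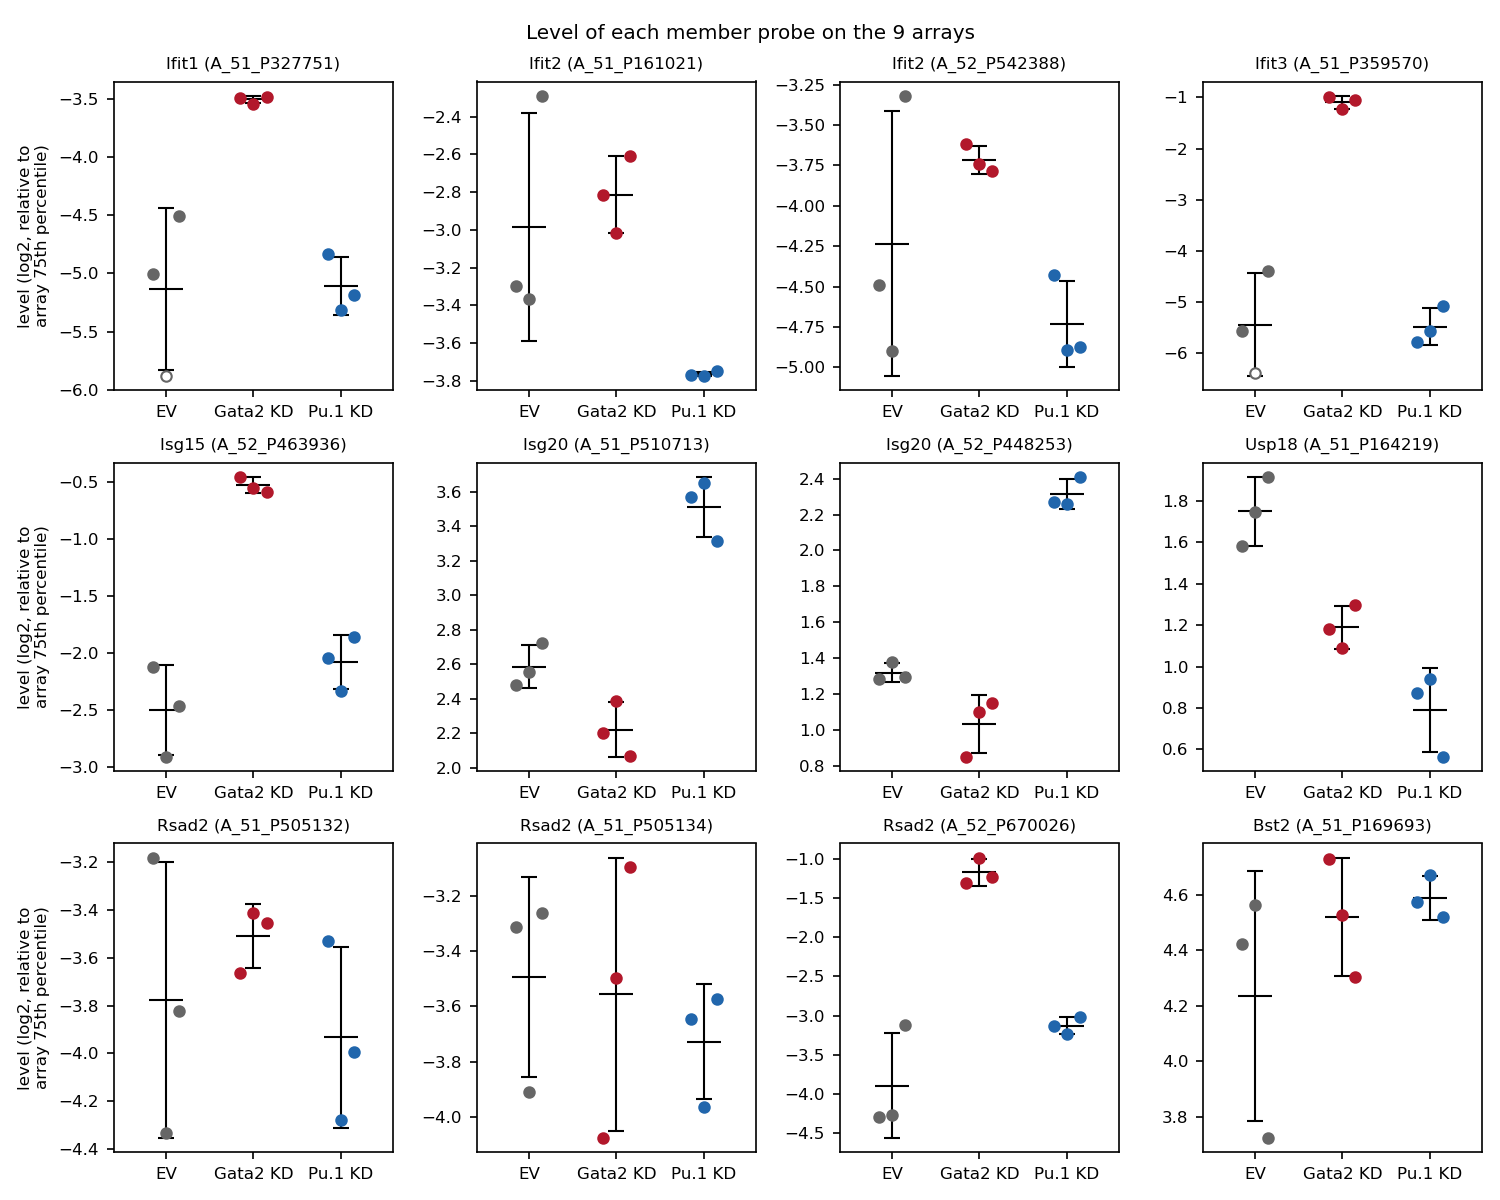
Each panel plots the level of 1 member probe (log2, relative to the 75th percentile of the array) on the 9 arrays, with points for arrays, an open point where the probe was not well above background, and the mean ± SD of each group (n = 3). Ifit1, Ifit3, Isg15 and the Rsad2 probe A_52_P670026 lie higher on all 3 Gata2 KD arrays than on any other array, and both Isg20 probes lie highest on the Pu.1 KD arrays.

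Among the IFIT genes, Ifit3 had the widest difference of all members. Its EV arrays read -5.55, -6.39 and -4.38 (replicates 1 to 3), its Gata2 KD arrays read -0.996, -1.24 and -1.05, and its Pu.1 KD arrays read -5.78, -5.57 and -5.07. The Gata2 KD arrays stood clear of all others, and the EV and Pu.1 KD arrays overlapped. Ifit3 was well above background on 2 of 3 EV arrays, on all 3 Gata2 KD arrays and on all 3 Pu.1 KD arrays. The difference of Gata2 KD from EV was 4.35 (95% CI 3.32 to 5.37, adjusted p = 0.000752), or 20.4-fold. Within slides it was 4.51, 3.15 and 5.39 on slides 1, 2 and 3, each of which held 1 array of every group. In Pu.1 KD the difference from EV was -0.03 (95% CI -1.06 to 0.99, adjusted p = 1). The mouse genome holds a near-identical copy, Ifit3b, and whether the probe separates the pair was not tested. The Gata2 KD difference was 2.15 after normexp background correction and 2.69 in the deposited log2 values, with an adjusted p of 7.86e-06 and 2.14e-06. The normexp setting adds an offset of 50 to each signal, and the processed signal of Ifit3 was 12.5, 5.89 and 23.4 on the EV arrays. On each array the deposited values correlated more closely with the median signal than with the processed signal (r = 0.997 against 0.980 on EV replicate 3). The fold of this dim probe thus differed between the settings. The cause of the smaller values was not tested.

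Ifit1 read -5.01, -5.89 and -4.51 in EV, -3.49, -3.54 and -3.48 in Gata2 KD, and -4.83, -5.31 and -5.19 in Pu.1 KD. It was thus higher on every Gata2 KD array than on any other, and EV and Pu.1 KD overlapped. EV replicate 2 was not well above background for Ifit1, so that 2 of 3 EV arrays measured it. The difference of Gata2 KD from EV was 1.63 (95% CI 0.90 to 2.36, adjusted p = 0.0213), or 3.09-fold, and that of Pu.1 KD was 0.02 (95% CI -0.70 to 0.75, adjusted p = 1). The Gata2 KD difference of Ifit1 did not pass in 5 of 18 alternatives: without EV replicate 1 (1.69), without Gata2 KD replicate 1, 2 or 3 (1.62, 1.65 and 1.62), and with only EV and Gata2 KD fitted (1.63), with an adjusted p between 0.0586 and 0.0838. The difference was 0.57 after normexp correction and 0.82 in the deposited values, with adjusted p = 0.0344 and 0.000556.

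Ifit2 lies beside Ifit1 and Ifit3 on the chromosome and did not pass the test in any comparison. By probe A_51_P161021 it read -3.30, -3.37 and -2.29 in EV, -2.82, -3.01 and -2.61 in Gata2 KD, and -3.77, -3.77 and -3.75 in Pu.1 KD. EV replicate 3 read above all Gata2 KD arrays and the other EV arrays read below them, while the Pu.1 KD arrays were lowest and lay close together. The difference from EV was 0.17 in Gata2 KD (95% CI -0.47 to 0.81, adjusted p = 0.943) and -0.78 in Pu.1 KD (95% CI -1.42 to -0.14, adjusted p = 0.26). The other probe, A_52_P542388, gave 0.52 (adjusted p = 0.681) and -0.50 (adjusted p = 0.773). Without EV replicate 3 the Gata2 KD difference of that probe was 0.98 with adjusted p = 0.0407.

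Isg15 was higher in Gata2 KD. Its levels were -2.12, -2.91 and -2.46 in EV, -0.45, -0.55 and -0.58 in Gata2 KD, and -2.04, -2.33 and -1.85 in Pu.1 KD, all well above background. The Gata2 KD arrays stood above the rest, and the EV and Pu.1 KD arrays overlapped. Gata2 KD differed from EV by 1.97 (95% CI 1.48 to 2.47, adjusted p = 0.00112), or 3.93-fold, and by 1.54, 1.92 and 2.47 within slides 1, 2 and 3. Pu.1 KD differed from EV by 0.42 (95% CI -0.07 to 0.92, adjusted p = 0.527).

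Usp18, the protease that takes ISG15 off its targets, did not share the direction of Isg15. It read 1.58, 1.75 and 1.92 in EV, 1.18, 1.09 and 1.30 in Gata2 KD, and 0.87, 0.94 and 0.56 in Pu.1 KD, so that the 3 groups did not overlap and EV was highest. Pu.1 KD was lower than EV by a log2 difference of -0.96 (95% CI -1.32 to -0.60, adjusted p = 0.0182), or 1.95-fold. The Gata2 KD difference of -0.56 (95% CI -0.92 to -0.20) did not pass (adjusted p = 0.101), although it passed with the trend and robust settings of eBayes (adjusted p = 0.0367) and in the deposited values (adjusted p = 0.0416). The lower level in Pu.1 KD did not pass in 8 of 19 alternatives, among them without EV replicate 2 (-0.96), without EV replicate 3 (-0.88), without Pu.1 KD replicate 1, 2 or 3 (-1.0, -1.03 and -0.85) and after scaling to the median (-0.92), with an adjusted p of up to 0.116.

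Rsad2 was measured by 3 probes that did not move alike. Probe A_52_P670026 read -4.30, -4.27 and -3.12 in EV, -1.30, -0.98 and -1.23 in Gata2 KD, and -3.13, -3.24 and -3.02 in Pu.1 KD. It was higher on each Gata2 KD array than on any other array, by 2.73 over EV (95% CI 2.04 to 3.42, adjusted p = 0.00115), or 6.63-fold. Within slides 1, 2 and 3 the difference was 3.07, 2.14 and 2.98. It was 1.71 after normexp correction and 2.0 in the deposited values. Probes A_51_P505132 and A_51_P505134 were also well above background on all 9 arrays, but their groups overlapped and their differences from EV in Gata2 KD were 0.27 (95% CI -0.43 to 0.96) and -0.06 (95% CI -0.71 to 0.58), with adjusted p = 0.883 and 0.987. Probe A_52_P670026 had the highest mean over the 9 arrays and was therefore used for counts of genes, but that mean includes the Gata2 KD arrays. In EV it read lowest of the 3 (-3.90, against -3.78 for A_51_P505132 and -3.49 for A_51_P505134), and the rise of Rsad2 rests on it alone. Which stretch of the transcript each probe covers was not analysed here. In Pu.1 KD the difference of A_52_P670026 from EV was 0.77 (95% CI 0.08 to 1.46, adjusted p = 0.327), and without EV replicate 3 it was 1.16 with adjusted p = 0.0173.

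Isg20 was higher in Pu.1 KD by both of its probes. Probe A_51_P510713 read 2.48, 2.56 and 2.72 in EV, 2.20, 2.39 and 2.07 in Gata2 KD, and 3.57, 3.65 and 3.31 in Pu.1 KD. Probe A_52_P448253 read 1.28, 1.38 and 1.30 in EV, 0.85, 1.102 and 1.15 in Gata2 KD, and 2.27, 2.26 and 2.41 in Pu.1 KD. By each probe the groups stood apart in the order Gata2 KD, EV, Pu.1 KD from lowest to highest. Pu.1 KD differed from EV by 0.93 (95% CI 0.57 to 1.28, adjusted p = 0.0192, 1.90-fold) and by 1.00 (95% CI 0.69 to 1.30, adjusted p = 0.00871, 1.99-fold). The Gata2 KD differences of -0.37 (95% CI -0.72 to -0.01) and -0.29 (95% CI -0.59 to 0.02) did not pass (adjusted p = 0.318 and 0.395). For probe A_51_P510713 the Pu.1 KD difference did not pass in 7 of 19 alternatives, among them without EV replicate 1 (0.87), EV replicate 2 (0.91), Pu.1 KD replicate 1 (0.90) or Pu.1 KD replicate 2 (0.85), with an adjusted p of up to 0.0965. For probe A_52_P448253 it did not pass in 2 of 19, with an adjusted p of up to 0.0544.

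Bst2 read 4.42, 4.56 and 3.72 in EV, 4.73, 4.53 and 4.30 in Gata2 KD, and 4.57, 4.67 and 4.52 in Pu.1 KD. All groups overlapped, and EV replicate 3 was the lowest array. The difference from EV was 0.29 in Gata2 KD (95% CI -0.24 to 0.81, adjusted p = 0.76) and 0.35 in Pu.1 KD (95% CI -0.17 to 0.88, adjusted p = 0.701). Among the 5 members with an ISRE-like repeat before the start, Bst2 was thus the one that did not pass in Gata2 KD. A link between the repeat and the change of a member was not tested.

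**Figure D3:**
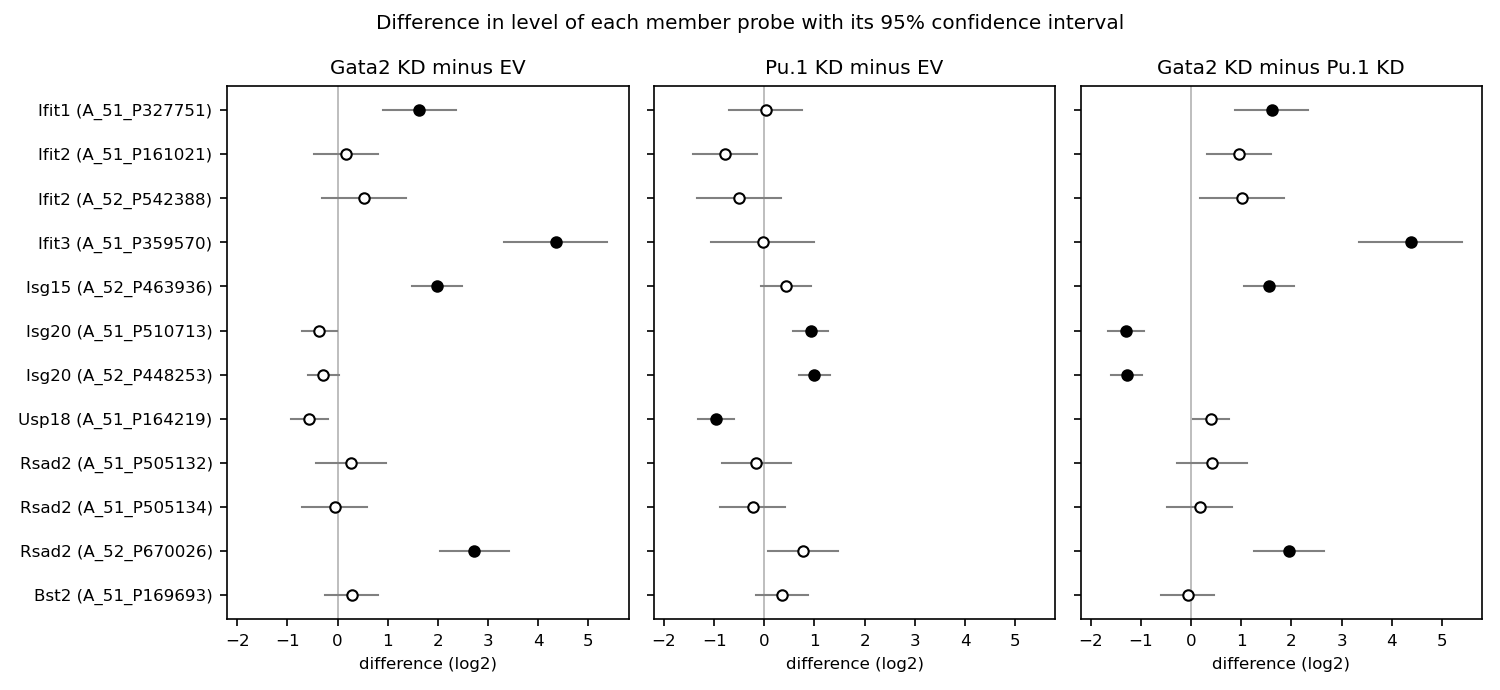
Points give the difference in level (log2) of each of the 12 member probes in the 3 comparisons, with bars for the 95% confidence interval of the limma fit and filled points where the adjusted p was under 0.05. Filled points lie to the right for Ifit1, Ifit3, Isg15 and 1 of 3 Rsad2 probes in Gata2 KD, and for both Isg20 probes in Pu.1 KD, where Usp18 lies to the left.

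When the knockdowns were compared with each other, Gata2 KD had more Ifit1, Ifit3, Isg15 and Rsad2 and less Isg20. Here 4.86% of all tested probes were higher and 4.77% lower in Gata2 KD. The difference was 4.38 for Ifit3 (adjusted p = 0.000412, 20.8-fold), 1.96 for Rsad2 by probe A_52_P670026 (adjusted p = 0.00403, 3.89-fold), 1.60 for Ifit1 (adjusted p = 0.014, 3.04-fold) and 1.55 for Isg15 (adjusted p = 0.00237, 2.93-fold). These differences were smaller after normexp correction (2.11 for Ifit3, 1.34 for Rsad2, 0.55 for Ifit1 and 1.18 for Isg15) and in the deposited values (2.69, 1.54, 0.74 and 1.29, in the same order), and each of them passed. The Isg20 probes differed by -1.29 (adjusted p = 0.000967) and -1.28 (adjusted p = 0.000467), a level 2.45-fold and 2.43-fold lower in Gata2 KD. Both probes of Ifit2 were higher on all Gata2 KD arrays than on all Pu.1 KD arrays, by 0.95 (95% CI 0.31 to 1.59) and 1.02 (95% CI 0.18 to 1.85), and did not pass (adjusted p = 0.0772 and 0.155). Of all tested probes, 11.8% lay higher on all Gata2 KD arrays than on all Pu.1 KD arrays, and 13.9% lay lower. With only these 2 groups in the fit the Ifit2 probes passed (adjusted p = 0.0106 and 0.0139), and so they did once EV replicate 3 was left out (adjusted p = 0.00464 and 0.0113). The Ifit1 difference did not pass in 4 of 18 alternatives, those without Gata2 KD replicate 2 (1.62) or 3 (1.59) or Pu.1 KD replicate 2 (1.504) or 3 (1.57), with an adjusted p of up to 0.0599. Usp18 differed by 0.40 (95% CI 0.04 to 0.76, adjusted p = 0.207) and Bst2 by -0.07 (95% CI -0.59 to 0.46, adjusted p = 1).

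For 6 of the 8 members the SD between arrays was widest in EV. EV replicate 3 lay above the EV mean for 7 of the 8 members, by 1.06 for Ifit3, 0.78 for Rsad2, 0.70 for Ifit2 and 0.62 for Ifit1, and below it only for Bst2 (-0.51). EV replicate 2 lay below the EV mean for 7 of the 8 members, and above it for Bst2 (0.33). The mean deviation over the 8 genes was 0.37 in EV replicate 3 and -0.32 in EV replicate 2, and between -0.04 and 0.03 on the 6 arrays of the knockdown groups. Without EV replicate 3, the Gata2 KD differences were 4.88 for Ifit3, 3.12 for Rsad2 (A_52_P670026), 1.99 for Isg15 and 1.94 for Ifit1, each with an adjusted p between 7.14e-05 and 0.00661. EV replicate 3 was on slide 2, the slide on which the differences of Ifit1, Ifit3 and Rsad2 from EV were smallest in Gata2 KD. With the slide as a block, the adjusted p in Gata2 KD was 0.00289 for Ifit3, 0.00166 for Rsad2 (A_52_P670026), 0.00154 for Isg15 and 0.0142 for Ifit1, and in Pu.1 KD it was 0.00782 and 0.00859 for the Isg20 probes and 0.0171 for Usp18.

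**Figure D4:**
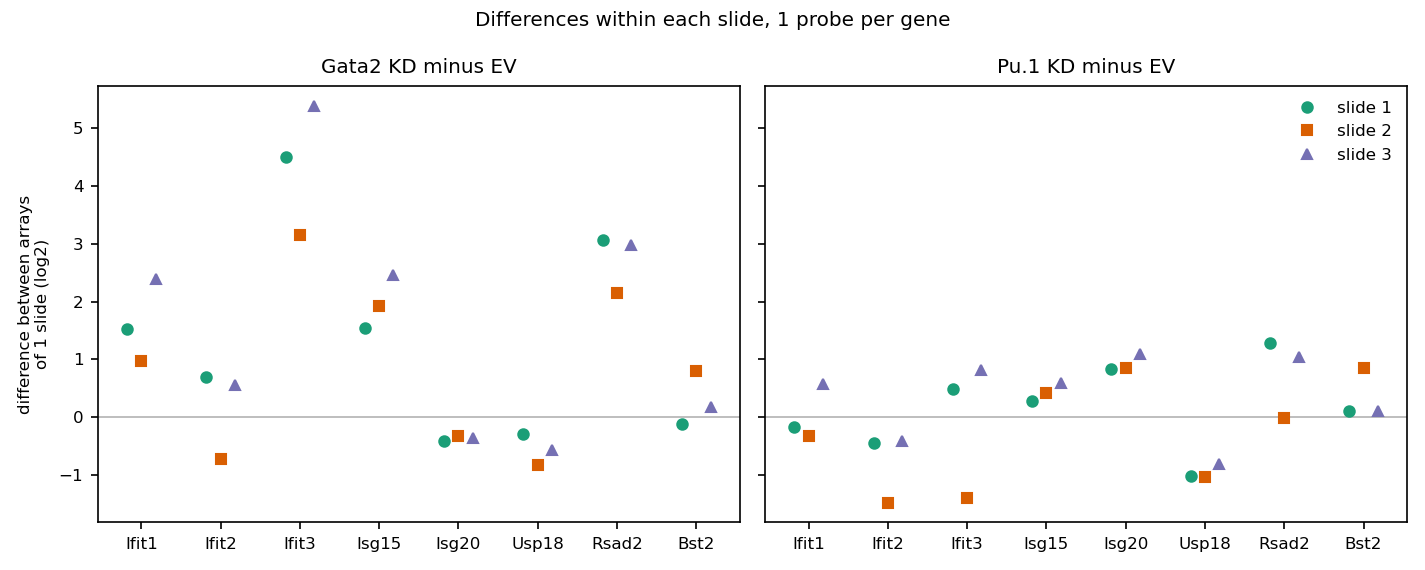
Each point is the difference in level (log2) between a knockdown array and the EV array of the same slide, for 1 probe of each of the 8 members and for 3 slides. Ifit1, Ifit3, Isg15 and Rsad2 lie above 0 on all 3 slides in Gata2 KD, Isg20 lies above 0 and Usp18 below 0 on all 3 slides in Pu.1 KD, and Ifit2 and Bst2 in Gata2 KD lie on both sides of 0.

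The other genes of the interferon pathway were read from 9 lists. Of 108 tested genes, 37 were higher and 4 lower in Gata2 KD than in EV, with a median log2 difference of 0.39, and 3 were higher and 5 lower in Pu.1 KD, with a median of 0.06. These counts are 34.3% higher and 3.70% lower in Gata2 KD, beside 2.96% and 2.24% of all tested probes. In Pu.1 KD they are 2.78% higher and 4.63% lower, beside 1.27% and 1.42%. The lists were chosen with earlier results of these data known, and they count 1 probe per gene where the array shares count every probe. The shares are thus a description and no test of the lists. Cxcl10, among the 37, met the filter only through the Gata2 KD arrays. Of the 10 interferon ligand genes tested, 0 passed in either comparison by limma (0 at an unadjusted p under 0.05), and their differences from EV lay between -0.18 and 0.26. The standard errors of these ligand differences were up to 0.66 (Ifna4), so small changes could go unseen. The type I interferon gene Ifnb1, named outside the rule given below, read -4.08 ± 0.60 in EV, -3.84 ± 0.36 in Gata2 KD and -4.09 ± 0.31 in Pu.1 KD (SD, n = 3). The count of pathway genes that passed in Pu.1 KD ranged from 2 to 16 and that in Gata2 KD from 24 to 48 over the alternatives.

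Among the receptors and JAK-STAT genes, 6 of 12 were higher and 1 was lower in Gata2 KD. Ifngr2 and Ifngr1, the chains of the interferon-gamma receptor, rose by 1.44 and 1.12 (adjusted p = 0.00144 and 0.0034). Ifnar1 and Ifnar2, the chains of the type I interferon receptor, rose by 0.82 and 0.89 (adjusted p = 0.0122 and 0.021). Both are named after their values were seen. Stat2 (0.54, adjusted p = 0.12) and Irf9 (0.40, adjusted p = 0.213), whose products bind the ISRE together, did not pass against EV. Against Pu.1 KD, Stat2 was higher in Gata2 KD (0.62, adjusted p = 0.0452) and Irf9 did not pass. In Pu.1 KD 1 of these 12 genes passed, the kinase gene Jak2, which was lower (-1.04, adjusted p = 0.0125). Of the 8 interferon regulatory factors, 4 were higher in Gata2 KD, led by Irf8 (4.38, adjusted p = 3.47e-06), a factor of monocyte and dendritic cell development, Irf7 (1.67, adjusted p = 0.00136), an amplifier of interferon production, and Irf5 (1.47, adjusted p = 0.000853). Irf5 was lower in Pu.1 KD (-0.94, adjusted p = 0.0176).

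Nucleic acid sensors and adaptors held 5 of 14 genes that were higher in Gata2 KD and 0 that were lower. Zbp1, a sensor of Z-form nucleic acid, was higher by 3.35 (adjusted p = 4.49e-05), the kinase gene Ikbke by 2.67 (adjusted p = 4.4e-05) and Dhx58, a regulator of the RIG-I-like receptors, by 2.25 (adjusted p = 0.000818). Zbp1 was also higher in Pu.1 KD (0.96, adjusted p = 0.0488). Of the 5 enzymes of ISG15 conjugation that were tested, Trim25 was higher in Gata2 KD (0.56, adjusted p = 0.0331). Uba7, which activates ISG15, and Ube2l6, which carries it to its targets, differed from EV by 0.03 and 0.06 in Gata2 KD (adjusted p = 0.99 and 0.992). Herc6, a ligase for ISG15, had no probe named through the RefSeq table.

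The families closest to the members in function were the OAS, IFITM and GTPase genes. Of 11 OAS and RNase L genes, 3 were higher in Gata2 KD. Oasl2 was not well above background on any EV array and was at least 41.5-fold higher in Gata2 KD (adjusted p = 0.000114), a bound set by the lowest signal well above background on each EV array. Oas2 was higher by 4.54 (adjusted p = 0.000202) and was well above background on 2 of 3 EV arrays, and Oas1a was higher by 0.90 (adjusted p = 0.0117). Of 5 IFITM genes, which restrict viral entry, 2 were higher in Gata2 KD, Ifitm6 by 5.17 (adjusted p = 3.47e-06) and Ifitm3 by 0.62 (adjusted p = 0.0449), and Ifitm6 was lower in Pu.1 KD (-1.16, adjusted p = 0.00805). Of 14 interferon-inducible GTPases, 3 were higher and 2 lower in Gata2 KD. Gbp3 was higher by 2.74 (adjusted p = 0.000416), while Ifi47 and Tgtp1 were lower (-1.25 and -1.05, adjusted p = 0.00189 and 0.0175). Igtp was the 1 GTPase gene that passed in Pu.1 KD (0.63, adjusted p = 0.0253), and is named after its value was seen. In Pu.1 KD, 0 of the 11 OAS and RNase L genes passed by limma (1 was higher and 1 lower at an unadjusted p under 0.05).

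Among 29 other interferon-stimulated genes, 13 were higher and 1 was lower in Gata2 KD. Cxcl10, a chemokine gene, was not well above background on any EV array and was at least 33.2-fold higher (adjusted p = 7.49e-06). It met the filter on dim probes only through the Gata2 KD arrays, where it is high, so that call is a description. Ccl5, also a chemokine gene, was higher by 2.80 (adjusted p = 9.73e-05). Ifi27l2a was higher by 3.42 in Gata2 KD (adjusted p = 2.76e-05) and lower in Pu.1 KD (-1.94, adjusted p = 0.00196). The other two genes of this list that passed in Pu.1 KD were Ifi211, named after its value was seen, which was lower (-2.09, adjusted p = 0.00178), and Cxcl10, which was higher (adjusted p = 0.02). Cxcl10 was well above background on 1 of 3 Pu.1 KD arrays and on no EV array. Most of the values behind its Pu.1 KD call were thus not well above background, and no size is given for that difference.

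**Figure D5:**
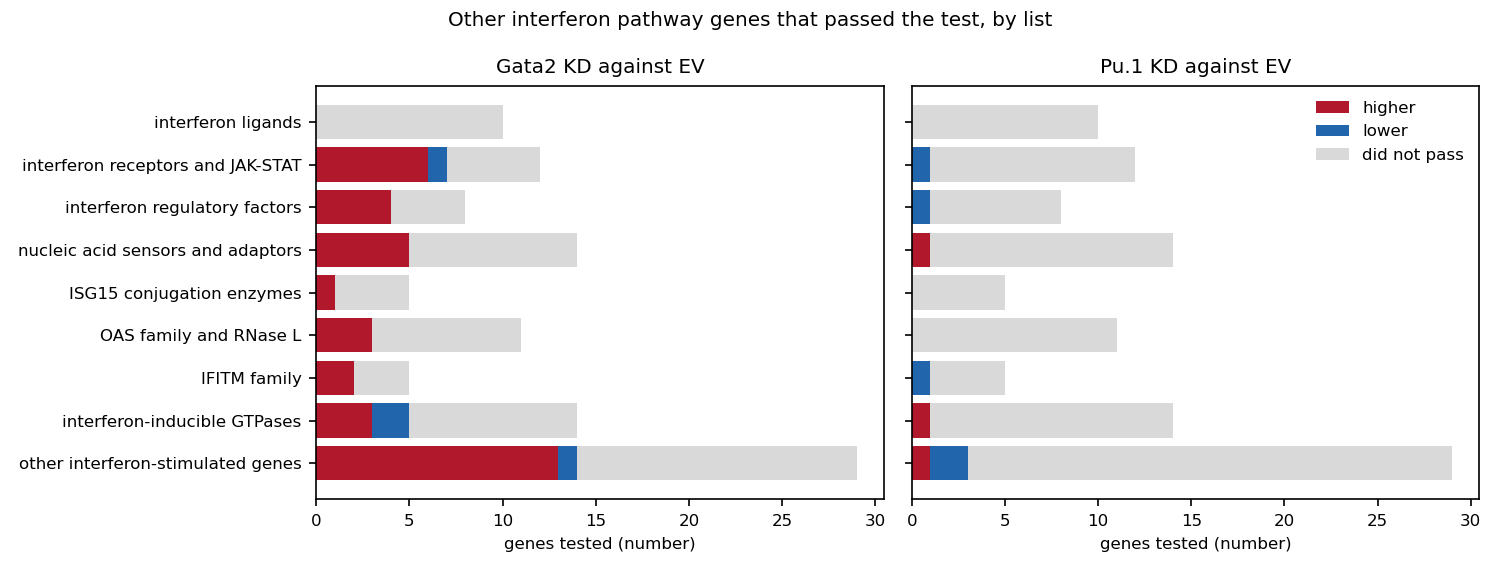
Bars give the number of tested genes in each of 9 interferon pathway lists, split into genes higher than EV, lower than EV and those that did not pass an adjusted p under 0.05, for Gata2 KD and Pu.1 KD. The ligand list holds no call in either comparison, and in Gata2 KD the higher genes outnumber the lower genes in the other 8 lists.

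Markers of several blood lineages also differed between the groups. The sums given here are led by the brightest probes of each list, so they are read between groups only. Of 11 neutrophil granule genes tested, 11 were higher in Gata2 KD than in EV, and the summed level of the list (linear, in units of the 75th percentile) was 241 to 270 on the EV arrays, 1137 to 1356 in Gata2 KD and 106 to 125 in Pu.1 KD. Of 6 monocyte and macrophage genes tested, 5 were higher in Gata2 KD, with sums of 4.16 to 4.46 in EV, 23.7 to 27.2 in Gata2 KD and 2.03 to 2.37 in Pu.1 KD. Of 8 mast cell and basophil genes, 6 were lower in Gata2 KD, with sums of 112 to 130 in EV, 23.1 to 24.9 in Gata2 KD and 72.0 to 80.2 in Pu.1 KD. In Pu.1 KD, 9 of the 11 neutrophil granule genes and 2 of the 6 monocyte and macrophage genes were lower than in EV. There 3 of the 8 mast cell and basophil genes were lower and 1 was higher. Ifit1, Ifit3, Isg15 and Rsad2 did not pass in that comparison. Of 7 erythroid genes, Klf1 (-1.76), Gata1 (-1.08) and Epor (-0.65) were lower in Gata2 KD (adjusted p = 0.00016, 0.0128 and 0.0353), and Klf1 (0.84) and Epor (0.87) were higher in Pu.1 KD (adjusted p = 0.0174 and 0.0165), with sums of 11.4 to 12.8 in EV, 8.30 to 12.2 in Gata2 KD and 17.7 to 21.1 in Pu.1 KD. Of 7 plasmacytoid dendritic cell markers 1 was higher in each knockdown, with sums of 3.05 to 3.88 in EV, 3.69 to 3.88 in Gata2 KD and 3.90 to 5.02 in Pu.1 KD. Of 5 lymphocyte markers 0 passed in Gata2 KD by limma (0 at an unadjusted p under 0.05), with sums of 1.77 to 2.82 in EV and 1.76 to 2.69 in Gata2 KD. In these lists the macrophage receptor gene Mrc1 was the one marker that was not well above background on any EV array. Mrc1 was not well above background on any Pu.1 KD array either. It thus met the filter only through the Gata2 KD arrays, and it is among the 5 higher monocyte and macrophage genes. The part of these lineage markers in the differences of Ifit1, Ifit3, Isg15 and Rsad2 was not tested.

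The mean of the 8 members, each centered on its own mean over the 9 arrays, was 0.80 to 0.85 on the Gata2 KD arrays, -0.40 to -0.34 on the Pu.1 KD arrays and -0.78 to -0.08 on the EV arrays. Among 14459 other named genes with a signal well above background on all 9, the profiles most like it over the 9 arrays were those of Lyst (Pearson r = 0.990), Gpr84 (0.989), Aif1 (0.988), Klk1b11 (0.987) and Plxdc1 (0.987). The profile they were chosen for is highest on the Gata2 KD arrays, so that their direction was fixed by the choice. Their differences of Gata2 KD from EV, given as a description, were 4.09 for Gpr84, 3.36 for Aif1, 2.12 for Klk1b11, 2.0 for Lyst and 1.502 for Plxdc1. The correlations are a description of 9 arrays that share their 3 groups and their slides.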

How the data were processed

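The 9 arrays were used together, 3 for each of the EV, Gata2 shRNA and Pu1 shRNA groups, as the sample titles name them, with 150 ng of total RNA labeled per array. Scanner files from Agilent Feature Extraction 10.1.1.1 were deposited for each sample, and their processed intensity is corrected for background within an array but not scaled between arrays, and a table of deposited log2 values served as an alternative. Spots flagged as outliers and control spots were left out, spots of a probe were averaged, and the 75th percentile of each array was subtracted on the log2 scale. A probe entered the test with a signal well above background on 3 or more of 9 arrays and with 2 or more values in each group (36585 of 41174 probes). Between 80.4% and 89.6% of spots were well above background, no spot was saturated, and the number of arrays limits the precision. Subtracting background from dim spots can make the differences of dim probes less certain.

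Accessions were matched without versions to a RefSeq table (GRCm38.p6), which named 23374 probes. All 185 symbols of the gene lists were found in that table, though some had no named probe. The 3 groups were fitted in one model with limma 3.58.1 (R 4.3.3; lmFit, contrasts.fit, eBayes), two-sided, and p-values were adjusted by Benjamini-Hochberg across every probe tested, with 0.05 as the limit. The fit was tested on simulated data. A gene was counted by its tested probe with the highest mean level.

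The members and the gene lists were chosen with earlier results of these data known. Named beside the members are the knockdown targets, up to 3 called genes with the largest change from each list, Stat2, Irf9, Irf7, Uba7, Ube2l6 and Herc6, and the 5 genes most like the members, except 1 gene that is not reported here. The alternatives were the replicate number or the slide as a block, normexp (offset 50, on the median signal), quantile and median scaling, no filter or a filter on all 9 arrays, the trend and robust options of eBayes, the log2 values as deposited, a fit of just the groups compared, and each array left out. The probe of highest mean in EV as the probe of a gene was added after seeing the data.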

Additional observations from a re-analysis of the deposited data

How the results depend on the processing

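The count of member probes that passed in Gata2 KD against EV (4) ranged from 2 to 5 over the alternatives and was 2 with a filter on all 9 arrays, which leaves Ifit1 and Ifit3 untested. The count in Pu.1 KD against EV (3) was 1 after median scaling, 0 with only the 2 groups compared and between 1 and 3 with an array left out. That of the direct comparison (6) ranged from 4 to 8. Ifit3, Isg15 and Rsad2 (A_52_P670026) kept their direction and their call in Gata2 KD against EV under every alternative that tested them. The count of pathway genes in Gata2 KD (41) was 27 after median scaling, 24 with only the 2 groups compared and between 26 and 40 with an array left out, the lowest without Gata2 KD replicate 2. In Pu.1 KD (8) it was 13 with the slide block and with quantile normalization, 15 with the trend and robust settings, 16 in the deposited values, 2 with only the 2 groups compared and between 3 and 9 with an array left out. With the probe of highest mean in EV, chosen after seeing the data, the counts of pathway genes were 40 and 8. The causes were not tested.

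The replicate numbers did not pair the arrays: deviations of same-numbered arrays from their group means correlated between -0.55 and 0.65, and 3 of 9 arrays correlated best with one of their own number, against 8 of 9 with one of their own slide. With the replicate block, 0 member probes and 3 pathway genes passed in Pu.1 KD against EV.

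Differences that had not passed changed sign in several settings. For Rsad2 (A_51_P505134) in Gata2 KD against EV (-0.06) the value was 0.025 after normexp, 0.13 after quantile normalization and 0.045 in the deposited values, and -0.29 to 0.20 with an array left out, where it was -0.059 to 0.43 against Pu.1 KD. For Ifit3 in Pu.1 KD against EV (-0.03) it was 0.042 after normexp, 0.28 after quantile normalization, 0.0043 after median scaling and 0.007 in the deposited values, and -0.51 to 0.50 with an array left out. Rsad2 (A_51_P505132) in Pu.1 KD was 0.10 after quantile normalization and -0.43 to 0.14 with an array left out, and -0.0085 to 0.57 in Gata2 KD. With an array left out, Ifit1 in Pu.1 KD lay between -0.35 and 0.34, Ifit2 (A_51_P161021) in Gata2 KD between -0.020 and 0.52, and Bst2 in Gata2 KD against Pu.1 KD between -0.17 and 0.041.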
